A study of Mus musculus with 3 samples.

Results

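Apoptotic bodies (ABs) from mature osteoclasts (mOC-ABs) were compared with ABs from the bone marrow macrophages that osteoclasts are grown from (BMM-ABs), gene by gene. The reads listed for all transcripts of a protein-coding gene of GENCODE M21 were summed and divided by the total of the mRNA table of the same library. Of the 12408 protein-coding genes with a transcript in the table, the 10128 with at least 50 reads over the 2 libraries were compared, which is 81.6%. The series holds 3 libraries, 1 each of BMM-ABs, ABs from preosteoclasts (pOC-ABs) and mOC-ABs, so a difference cannot be set against a spread between samples and no p-value is given. All 3 start from bone marrow of C57BL/6 mice aged 11 weeks. The BMMs were raised in M-CSF (macrophage colony-stimulating factor) at 50 ng/ml. The pOCs were BMMs given M-CSF at 30 ng/ml and RANKL, the cytokine that drives osteoclast formation, at 100 ng/ml for 24 h. The mOCs had the same agents for at least 72 h. The labels state that 500 μM alendronate was added to every culture for 12 h to induce ABs, whereas the methods of the study name staurosporine and a longer RANKL time for mOCs, and the titles of the samples name the cells and not their ABs. The libraries were taken as ABs.

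Osteoclasts are large cells with several nuclei that arise when macrophage precursors fuse under M-CSF and RANKL. They seal off a patch of bone with a ring of actin-rich podosomes, pump protons and chloride into it through a ruffled membrane, and digest the exposed collagen with secreted proteases. The transcription factor NFATc1 switches on this programme, while factors such as IRF8 hold cells in the macrophage state. An AB is a membrane-bound fragment of a dying cell and carries RNA of that cell.

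The mRNA table summed to 9100082 reads for BMM-ABs, 7387317 for pOC-ABs and 7705592 for mOC-ABs, and the compared genes held 89.7% of it in BMM-ABs and 87.2% in mOC-ABs. Across these genes the median log2 ratio of mOC-ABs to BMM-ABs was -0.08, with quartiles of -0.43 and 0.20. A ratio above 2 was found for 251 genes, 2.48% of those compared, and a ratio below 0.5 for 741 genes, 7.32%. The genes past 2-fold were thus mostly on the lower side, although 4303 genes had a ratio above 1 and 5825 below 1. Each ratio has an exact binomial 95% interval of the share of a gene's reads that came from either library, which had a median width of 0.45 on the log2 scale. For 159 genes (1.57%) the whole interval lay above 2 and for 383 genes (3.78%) it lay below 0.5. The intervals cover counting error only, since 1 library a side gives no spread between cultures. They also take reads as independent, although the reads carry no molecular identifiers to tell copies of 1 molecule apart. Of the 992 genes past 2-fold in either direction (9.79%), 354 had under 200 reads over the 2 libraries.

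**Figure D1:**
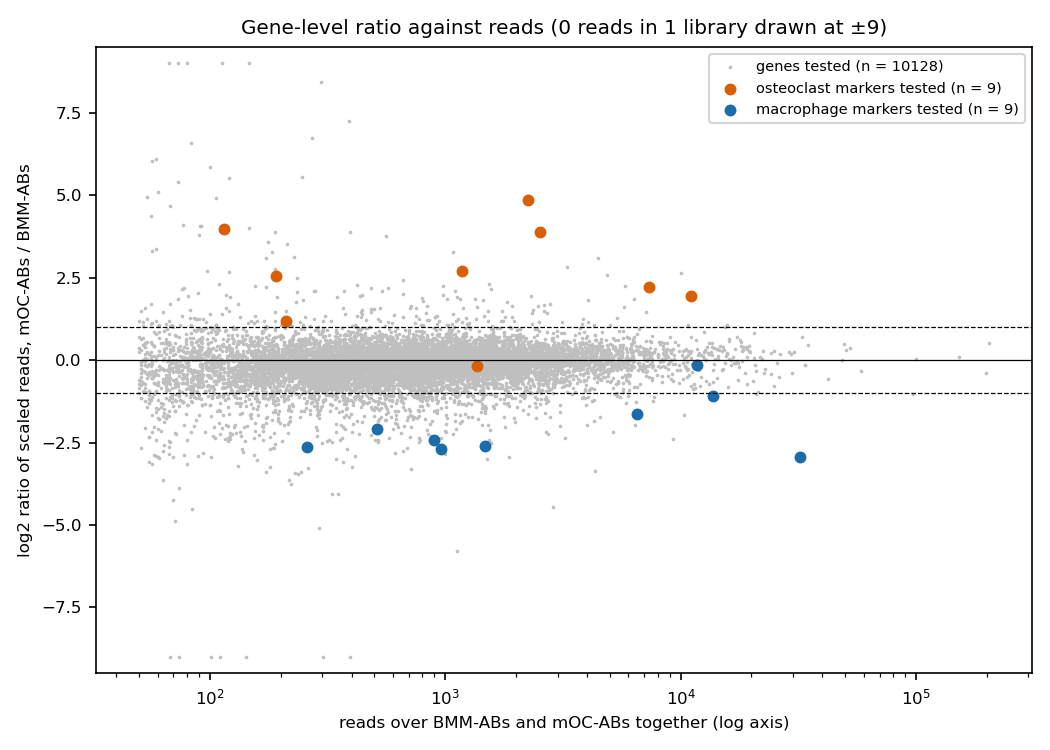
Log2 ratio of mOC-ABs to BMM-ABs for each compared gene (vertical axis) against its reads over both libraries (horizontal log axis), with the 2-fold limits as dashed lines, the compared osteoclast and macrophage markers in colour, and genes with 0 reads in 1 library drawn at the edge. The cloud of 10128 genes narrows as reads increase, and 741 genes lie below the lower limit against 251 above the upper one.

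The labels were checked against markers of each cell type. Of 12 osteoclast markers 11 had a row and 9 were compared, of which 8 had a ratio above 2 and Clcn7 did not, and the marker reads summed to 592 RPM (reads per 1000000 reads of the mRNA table) for BMM-ABs, 889 for pOC-ABs and 2704 for mOC-ABs. Of 12 macrophage markers 9 were compared, of which 8 had a ratio below 0.5, with summed levels of 5939, 2839 and 1825 RPM in the same order. The markers went with the labels in both libraries. The one macrophage marker compared that stayed above 0.5 was Cd68, a lysosomal membrane protein of both lineages, with 5056 reads in mOC-ABs against 6638 in BMM-ABs. A smaller share of unfused macrophages and less of their RNA per cell cannot be told apart in such libraries. The defining osteoclast integrin chain Itgb3 was listed with 6 BMM-AB, 3 pOC-AB and 0 mOC-AB reads, and Calcr, the calcitonin receptor, had no row in the table as used here. Markers of B cells, T and NK cells, erythroid cells, dendritic cells, megakaryocytes, osteoblasts and stromal cells, and endothelial cells summed to at most 20.1 RPM per list in either library. No marker of neutrophils or of mast cells had a row in the table as used here.

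The genes of bone resorption stood higher in mOC-ABs. Of 30 osteoclast effector genes 22 were compared, of which 12 had a ratio above 2 (54.5%, beside 2.48% of all genes) and 0 below 0.5 (beside 7.32%), and their median log2 ratio was 1.504 beside -0.08 over all genes. Acp5, which encodes tartrate-resistant acid phosphatase, had 88 BMM-AB, 292 pOC-AB and 2157 mOC-AB reads. Read counts are as listed, and where 3 are given without labels below, they are in the order of RANKL time, from BMM-ABs to mOC-ABs. The ratios are scaled, and counts over a list leave out members without a row in the table and members with under 50 reads. A member without a row has no level here. The minimum of 50 reads is reached more easily by a gene high in 1 library. List counts below stand beside 2.48% of all genes above 2 and 7.32% below 0.5. A gene can be on more than 1 list, as Itgam, Nfatc1 and Src are, so counts of different lists are not independent. Over all 10128 genes, 4303 had a ratio above 1 and 5825 below 1. The level of Acp5 was highest in mOC-ABs and lowest in BMM-ABs, and its log2 ratio of mOC-ABs to BMM-ABs was 4.86 (95% interval 4.55 to 5.18), a 28.9-fold difference. Ctsk, the collagen-degrading protease cathepsin K, had 180 BMM-AB, 171 pOC-AB and 1001 mOC-AB reads, so that BMM-ABs and pOC-ABs lay close together in reads and mOC-ABs stood apart, with a log2 ratio of 2.72 (95% interval 2.49 to 2.95). Mmp9, a gelatinase, had 8 BMM-AB, 17 pOC-AB and 107 mOC-AB reads, and a log2 ratio of 3.98 (95% interval 2.95 to 5.23). Car2, the carbonic anhydrase that supplies protons for acid secretion, had 1473 BMM-AB, 1911 pOC-AB and 5835 mOC-AB reads and a log2 ratio of 2.23 (95% interval 2.14 to 2.31). Slc9b2, a sodium-proton antiporter, had 3 BMM-AB, 58 pOC-AB and 269 mOC-AB reads, and the few reads in BMM-ABs leave a wide interval around its log2 ratio of 6.73, from 5.16 to 9.01. Src, the kinase needed to form the ruffled border, had 118 BMM-AB, 178 pOC-AB and 962 mOC-AB reads, a log2 ratio of 3.27 (95% interval 2.99 to 3.56). Oscar, a collagen receptor of osteoclasts, had 0, 7 and 49 reads in the 3 libraries and so fell 1 read short of the minimum of 50.

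Other genes of acid secretion and lysosome fusion did not pass 2-fold. The chloride-proton exchanger Clcn7 had 777 BMM-AB, 366 pOC-AB and 587 mOC-AB reads, a log2 ratio of -0.17 (95% interval -0.32 to -0.01), or 0.18 from summed FPKM. Its partner subunit Ostm1 had a log2 ratio of -0.45 (95% interval -0.71 to -0.19), and the adaptor Plekhm1, needed for lysosome secretion at the ruffled border, had one of -0.18 (95% interval -0.26 to -0.11). Tcirg1, the a3 subunit of the proton pump at the ruffled border, had 3890 BMM-AB, 2316 pOC-AB and 3041 mOC-AB reads, and its log2 ratio was -0.12 (95% interval -0.18 to -0.05), or 0.12 from protein-coding transcripts alone. Both ratios for Tcirg1 are near that of the median gene. Per transcript length, summed FPKM (fragments per kilobase of transcript, scaled to the library) in mOC-ABs was 195 for Acp5, 85.9 for Ctsk, 429 for Car2, 165 for Tcirg1 and 27.3 for Clcn7. In BMM-ABs the FPKM of the same genes was 6.76, 13.1, 94.8, 177 and 24.1. Tcirg1 was thus the highest of these 5 per length in BMM-ABs.

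The vacuolar ATPase, the proton pump itself, is built from a membrane part and a cytosolic part. Of its 19 compared subunits, 3 had a ratio above 2 (15.8%, beside 2.48% of all genes) and 0 below 0.5. A ratio above 1 was found for 13, and the median log2 ratio was 0.37. Atp6v0d2, the d2 subunit of the membrane part that is used in osteoclasts and also required for fusion, had 187 BMM-AB, 873 pOC-AB and 2338 mOC-AB reads and a log2 ratio of 3.88 (95% interval 3.67 to 4.11). The catalytic A subunit Atp6v1a had 5739 BMM-AB, 6529 pOC-AB and 9760 mOC-AB reads, a log2 ratio of 1.01 (95% interval 0.96 to 1.05), just past 2-fold. Its partner Atp6v1b2 had 2153, 2195 and 5002 reads in the same order and a log2 ratio of 1.46 (95% interval 1.38 to 1.53). Other subunits lay lower, with log2 ratios of -0.84 (95% interval -1.10 to -0.58) for Atp6v0a1 and -0.45 (95% interval -0.63 to -0.26) for Atp6v0a2, which are alternative forms of the subunit that Tcirg1 encodes. The summed subunits reached 2839.6, 3169 and 4544 RPM in the order of RANKL time.

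**Figure D2:**
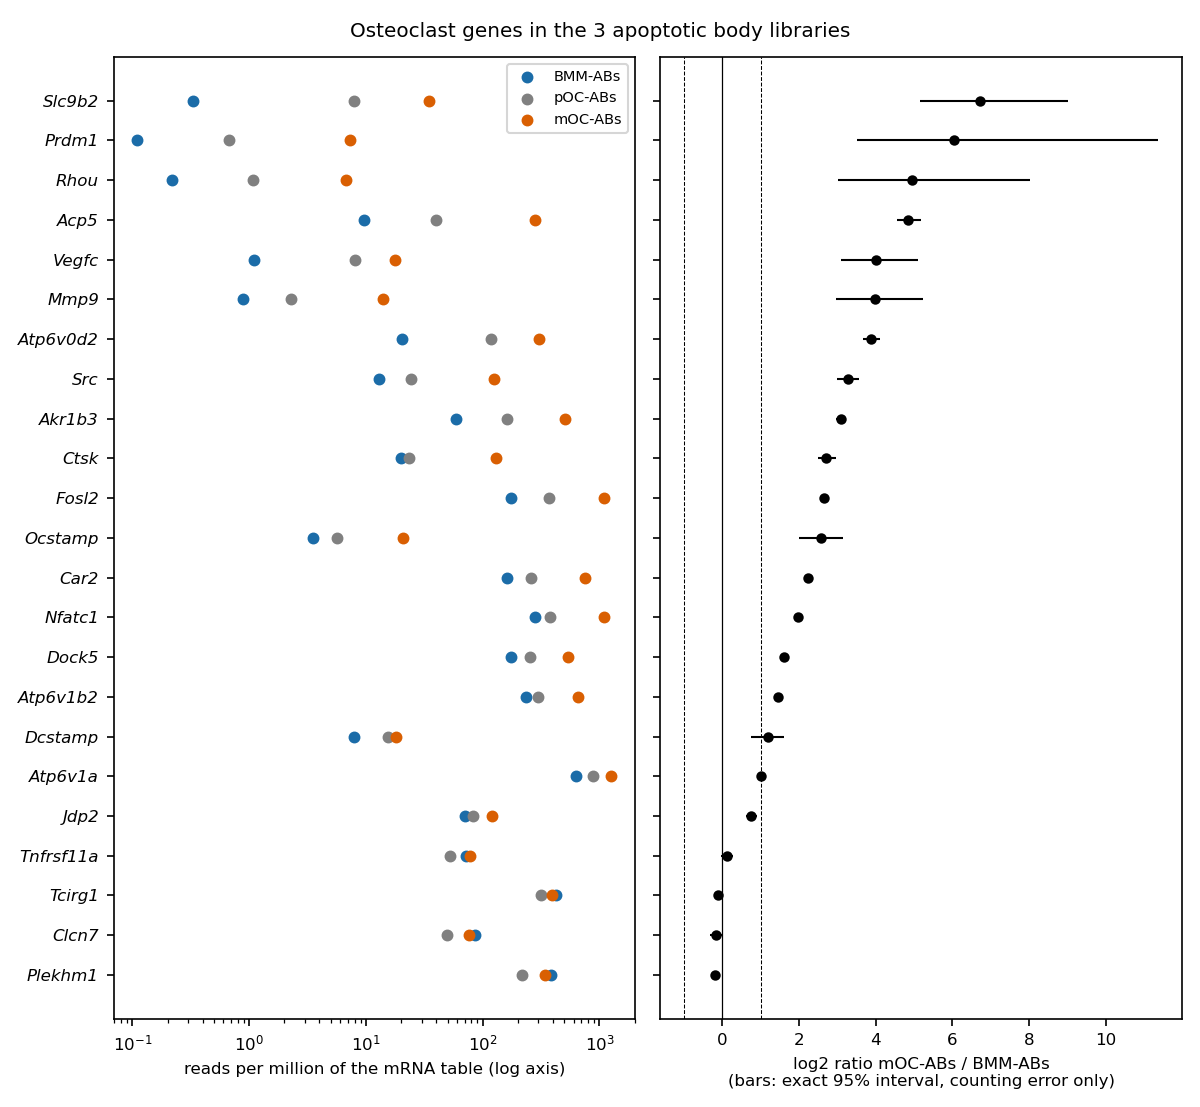
RPM (reads scaled to the mRNA table, horizontal log axis) of osteoclast genes in the 3 libraries, 1 per AB type, and, on the right, the log2 ratio of mOC-ABs to BMM-ABs with its exact 95% counting interval (bars) and the 2-fold limits (dashed). Acp5 runs from 9.67 to 279.9 RPM between BMM-ABs and mOC-ABs, while Clcn7 and Tcirg1 lie near a log2 ratio of 0.

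Promoter sequence is shown for Acp5 and Ctsk, which stood higher, and for Cybb, a macrophage gene that stood lower (described further on). The 250 bases before the RefSeq start of each gene are printed 5′ to 3′ on the strand of the gene (GRCm38.p6). Capitals mark GGAAA or its reverse complement, the core that NFAT proteins bind, and TGANTCA, which AP-1 dimers of Fos and Jun proteins bind. The Acp5 promoter lies at chr9:22131866-22132115 on the minus strand, that of Ctsk at chr3:95498960-95499209 on the plus strand and that of Cybb at chrX:9469325-9469574 on the minus strand. The RefSeq start is 34 bases from the start of the most-read transcript for Acp5, 46 for Ctsk and 0 for Cybb. The bases just after that start were found in a GENCODE transcript of Cybb, but not in one of Acp5 or Ctsk.
Acp5: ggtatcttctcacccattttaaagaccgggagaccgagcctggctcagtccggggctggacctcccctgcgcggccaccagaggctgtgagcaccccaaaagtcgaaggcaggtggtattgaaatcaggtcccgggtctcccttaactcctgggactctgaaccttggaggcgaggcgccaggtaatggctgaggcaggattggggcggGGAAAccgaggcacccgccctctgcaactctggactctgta
Ctsk: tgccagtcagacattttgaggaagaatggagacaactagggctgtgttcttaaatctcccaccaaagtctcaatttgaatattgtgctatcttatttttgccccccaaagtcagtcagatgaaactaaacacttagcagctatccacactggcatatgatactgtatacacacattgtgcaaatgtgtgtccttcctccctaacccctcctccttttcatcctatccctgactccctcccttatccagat
Cybb: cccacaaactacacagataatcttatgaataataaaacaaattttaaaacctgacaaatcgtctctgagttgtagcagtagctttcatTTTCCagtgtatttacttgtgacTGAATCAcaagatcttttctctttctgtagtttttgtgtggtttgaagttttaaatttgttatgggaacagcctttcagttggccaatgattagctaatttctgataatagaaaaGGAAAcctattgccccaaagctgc
The Acp5 stretch holds 1 GGAAA and no TGANTCA, the Cybb stretch 2 and 1, and the Ctsk stretch neither, though it holds 2 copies of GAGGAAG. These letters are common. Of 8069 compared genes with a matched RefSeq promoter, 6570 had its start within 100 bases of that of their most-read transcript. Of all 8069, 54.24% hold GGAAA on either strand, against 50.79% of the 189 matched genes above 2-fold and 56.52% of the 575 below 0.5. TGANTCA, which cannot overlap GGAAA, was found in 3.85% of all 8069, 7.94% of the genes above 2-fold and 7.65% of those below 0.5. The ETS and PU.1 core GAGGAAG, which contains no GGAAA, was found in 10.83%, 12.17% and 13.57%, and the E-box CACGTG that MITF and TFEB bind in 8.92%, 7.41% and 7.65%. A match describes the letters in this window and says nothing of binding.

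The transcription factors of osteoclast formation differed in opposite directions. Of 23 compared, 3 had a ratio above 2 and 5 below 0.5, and the median log2 ratio was -0.13. Nfatc1 had 2566 BMM-AB, 2772 pOC-AB and 8463 mOC-AB reads, at 282, 375 and 1098 RPM, with a log2 ratio of 1.96 (95% interval 1.90 to 2.03). Fosl2, an AP-1 protein also called Fra-2, had 1589 BMM-AB, 2757 pOC-AB and 8427 mOC-AB reads and a log2 ratio of 2.65 (95% interval 2.57 to 2.73). Prdm1, the repressor Blimp1 that silences macrophage factors in osteoclasts, was listed with 1 BMM-AB, 5 pOC-AB and 56 mOC-AB reads, and its log2 ratio of 6.05 has an interval of 3.51 to 11.38. Jdp2, a dimerisation partner of AP-1 proteins, was listed with 647, 606 and 924 reads, its log2 ratio of 0.75 (95% interval 0.61 to 0.90) falling short of 2-fold. The AP-1 genes Fos, Jun and Fosb had ratios below 0.5. Fos had 1118, 562 and 363 reads and a ratio of -1.38 (95% interval -1.56 to -1.21) on the log2 scale, Jun had 3074, 2486 and 1112 reads with -1.23 (95% interval -1.33 to -1.13), and Fosb had 225, 35 and 71 reads with -1.42 (95% interval -1.83 to -1.03). Tfeb, a regulator of lysosome genes, had a log2 ratio of -1.05 (95% interval -1.28 to -0.82), which is below 0.5 for its point value but not for its whole interval.

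Factors that restrain osteoclast formation in macrophages stood lower in mOC-ABs. Of 19 compared, 6 had a ratio below 0.5 (31.6%, beside 7.32% of all genes) and 1 above 2 (5.26%, beside 2.48%). A ratio below 1 was found for 17, and the median log2 ratio was -0.69. Irf8 had 1330 BMM-AB, 431 pOC-AB and 207 mOC-AB reads, with a log2 ratio of -2.44 (95% interval -2.66 to -2.23). For Irf8 the pOC-AB library lay between the other libraries. Arid5a, an RNA-binding protein, and Klf2, a zinc finger factor, had log2 ratios of -1.98 (95% interval -2.39 to -1.59) and -1.76 (95% interval -1.99 to -1.54). Egr2 was the exception above 2-fold, with 57, 109 and 133 reads in the 3 libraries and a log2 ratio of 1.46 (95% interval 1.004 to 1.94), but of 0.86 from summed FPKM.

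RANK and ITAM signalling genes, which carry the differentiation signal to NFATc1, mostly lay within 2-fold. Of 35 compared, 2 had a ratio above 2 (5.71%, beside 2.48% of all genes) and 3 below 0.5 (8.57%, beside 7.32%), with a median log2 ratio of -0.12 that lies next to that of all genes. Nfatc1 and Rel, an NF-κB subunit with 291, 565 and 615 reads, a log2 ratio of 1.32 (95% interval 1.12 to 1.53), were the higher ones. The receptor Trem2 had 2823 BMM-AB, 1116 pOC-AB and 1090 mOC-AB reads, a log2 ratio of -1.13 (95% interval -1.24 to -1.03), and the ITAM adaptor Fcer1g had 1094, 592 and 458 reads and -1.02 (95% interval -1.18 to -0.86). Tyrobp, the other ITAM adaptor, also called DAP12, had 6433, 3230 and 3385 reads, a log2 ratio of -0.69 (95% interval -0.75 to -0.63), short of 2-fold. The inhibitory receptor Pirb had 138, 72 and 24 reads and the lowest ratio of the list at -2.28 (95% interval -2.97 to -1.65).

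Genes of fusion, adhesion and the actin ring were mixed too. Of 21 fusion genes, 3 had a ratio above 2 (14.3%, beside 2.48% of all genes) and 1 below 0.5 (4.76%, beside 7.32%). The median log2 ratio of the fusion genes was -0.57. Besides Atp6v0d2, the higher ones were the membrane proteins needed for osteoclast fusion. Ocstamp had 32 BMM-AB, 42 pOC-AB and 160 mOC-AB reads and a log2 ratio of 2.56 (95% interval 2.01 to 3.16), and Dcstamp had 72, 115 and 138 reads in the same order and one of 1.18 (95% interval 0.76 to 1.61). Cd44, a hyaluronan receptor, had 2009 BMM-AB, 998 pOC-AB and 717 mOC-AB reads, a log2 ratio of -1.25 (95% interval -1.37 to -1.12). The tetraspanin Cd9 had 1703, 581 and 869 reads, a log2 ratio of -0.73 (95% interval -0.85 to -0.61). Of 11 integrin chains, 0 had a ratio above 2 and 3 below 0.5 (27.3%, beside 7.32% of all genes). These 3 were the leukocyte chains Itgal, with 166, 74 and 15 reads, a log2 ratio of -3.23 (95% interval -4.10 to -2.47), and Itgam, with 1292, 630 and 180 reads and -2.60 (95% interval -2.84 to -2.38), and Itgb5, a partner of the αv chain, with 445, 124 and 128 reads and -1.56 (95% interval -1.85 to -1.27). The αv chain Itgav, part of the vitronectin receptor, had 392, 235 and 483 reads, a log2 ratio of 0.54 (95% interval 0.35 to 0.74).

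Of 45 podosome and actin ring genes, 6 had a ratio above 2 (13.3%, beside 2.48% of all genes) and 2 below 0.5 (4.44%, beside 7.32%). A ratio above 1 was found for 30, and the median log2 ratio was 0.23. Dock5, an exchange factor for Rac needed for the sealing zone, had 1602 BMM-AB, 1876 pOC-AB and 4138 mOC-AB reads and a log2 ratio of 1.61 (95% interval 1.53 to 1.69). Tns3, a tensin that links integrins to actin, had 5712 BMM-AB, 4753 pOC-AB and 10101 mOC-AB reads and a log2 ratio of 1.06 (95% interval 1.02 to 1.11), and the small GTPase gene Rhou had 2, 8 and 52 reads and one of 4.94 (95% interval 3.02 to 8.02). Tln1, which encodes the integrin-binding protein talin, and Ptk2b, the adhesion kinase Pyk2, had ratios below 1 and short of 2-fold, with log2 ratios of -0.40 (95% interval -0.43 to -0.37) and -0.40 (95% interval -0.49 to -0.31), although that of Ptk2b was 0.05 from protein-coding transcripts alone. The actin-binding protein Evl had 52, 41 and 5 reads, a log2 ratio of -3.14 (95% interval -4.82 to -1.82).

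Few genes for signals that osteoclasts send to bone-forming and vessel cells passed 2-fold. Of 17 coupling and angiogenic factors, 1 had a ratio above 2 (5.88%, beside 2.48% of all genes) and 2 below 0.5 (11.8%, beside 7.32%). Counts this small cannot set the list apart from all genes. The median log2 ratio of the list was -0.27. Vegfc, a growth factor for lymphatic vessels, had 10 BMM-AB, 59 pOC-AB and 137 mOC-AB reads, a log2 ratio of 4.02 (95% interval 3.09 to 5.11). Pdgfb, which encodes the chains of PDGF-BB, had 696 BMM-AB, 462 pOC-AB and 920 mOC-AB reads, a log2 ratio of 0.64 (95% interval 0.50 to 0.79), and Pdgfa had 132, 132 and 210 reads and 0.91 (95% interval 0.59 to 1.24). Both PDGF genes were higher in mOC-ABs and short of 2-fold. The chemokine gene Ccl9 had 1271, 1399 and 1918 reads, a log2 ratio of 0.83 (95% interval 0.73 to 0.94). Igf1, an anabolic growth factor, had 221 BMM-AB, 126 pOC-AB and 17 mOC-AB reads and the lowest ratio at -3.46 (95% interval -4.27 to -2.75), and complement C3 had 123, 38 and 15 reads and -2.80 (95% interval -3.68 to -2.02).

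**Figure D3:**
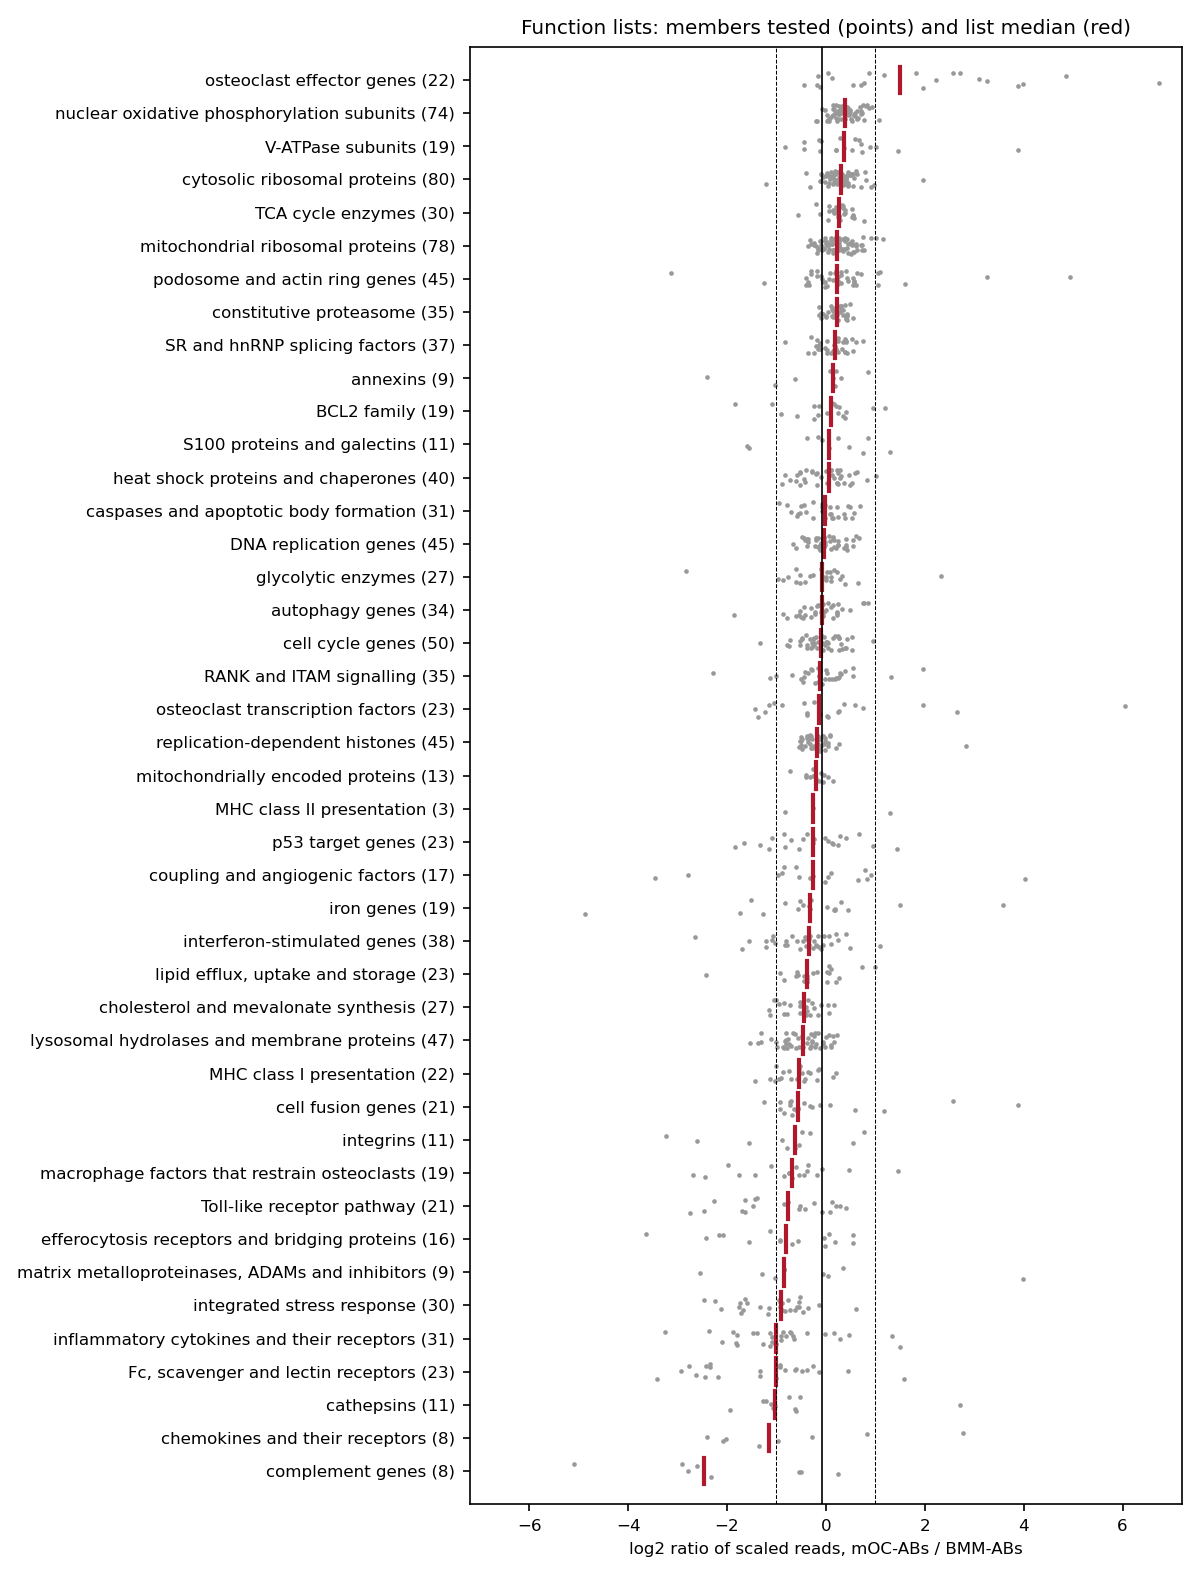
Log2 ratio of mOC-ABs to BMM-ABs for the compared genes of 43 function lists (1 point a gene, bar at the list median), ordered by median. Osteoclast effector genes lie at the upper end with a median of 1.504 and complement genes at the lower end with -2.47, beside a median of -0.08 over all genes.

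Genes of macrophage defence were among those farthest on the lower side. Cybb, the catalytic subunit of the phagocyte NADPH oxidase whose promoter is printed above, had 2769 BMM-AB, 783 pOC-AB and 108 mOC-AB reads. Its level was lower in pOC-ABs and lowest in mOC-ABs, and its log2 ratio was -4.44 (95% interval -4.73 to -4.16), a 21.7-fold higher level in BMM-ABs. The lysozyme gene Lyz2 had 28844 BMM-AB, 9854 pOC-AB and 3170 mOC-AB reads with a log2 ratio of -2.95 (95% interval -2.999 to -2.89), and its near-identical neighbour Lyz1, with which it may share reads, had 3986, 1507 and 325 reads and -3.38 (95% interval -3.54 to -3.21). Lyz2 alone made up 3169.6 RPM in BMM-ABs and 411 in mOC-ABs. Adgre1, the macrophage surface antigen F4/80, had 777 BMM-AB, 318 pOC-AB and 122 mOC-AB reads, a log2 ratio of -2.43 (95% interval -2.72 to -2.15). Csf1r, the M-CSF receptor that osteoclasts also need, had 9870 BMM-AB, 2640 pOC-AB and 3902 mOC-AB reads and a log2 ratio of -1.10 (95% interval -1.15 to -1.05), so that its lowest level was in pOC-ABs.

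Receptors for microbes and immune complexes stood lower together. Of 21 genes of the Toll-like receptor pathway, 9 had a ratio below 0.5 (42.9%, beside 7.32% of all genes) and 0 above 2. Their median log2 ratio was -0.76. Tlr7, a sensor of single-stranded RNA, had 588 BMM-AB, 352 pOC-AB and 74 mOC-AB reads and a log2 ratio of -2.75 (95% interval -3.12 to -2.40). Tlr13, a sensor of bacterial ribosomal RNA, had 451, 160 and 69 reads in that order and -2.47 (95% interval -2.86 to -2.10). Cd14, the co-receptor for lipopolysaccharide, had 5111, 2179 and 1398 reads and -1.63 (95% interval -1.72 to -1.55). The shared adaptor Myd88 and the kinase Irak1 did not lie on that side, with log2 ratios of 0.13 (95% interval -0.00042 to 0.27) and 0.40 (95% interval 0.28 to 0.51). Of 23 Fc, scavenger and lectin receptors, 12 had a ratio below 0.5 (52.2%) and 1 above 2 (4.35%, beside 2.48% of all genes). Clec4e, the receptor Mincle for mycobacterial glycolipid, had 214 BMM-AB, 221 pOC-AB and 17 mOC-AB reads and a log2 ratio of -3.41 (95% interval -4.22 to -2.70), so its reads in pOC-ABs were as high as in BMM-ABs. The sialic acid receptor Cd33 had 1680, 423 and 186 reads and -2.94 (95% interval -3.16 to -2.72), and Fcgr1, the high-affinity IgG receptor, had 227, 95 and 31 reads and -2.63 (95% interval -3.22 to -2.09). Clec4a2 was the exception above 2-fold, with 33, 54 and 84 reads, a log2 ratio of 1.59 (95% interval 0.99 to 2.22).

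Of 8 complement genes compared, 5 had a ratio below 0.5 (62.5%, beside 7.32% of all genes) and 0 above 2. Their median log2 ratio was -2.47. The anaphylatoxin receptor C5ar1 had 284 BMM-AB, 56 pOC-AB and 7 mOC-AB reads and a log2 ratio of -5.10 (95% interval -6.43 to -4.04). C3ar1, the receptor for C3a, had 606, 273 and 102 reads and -2.33 (95% interval -2.65 to -2.03). Properdin, encoded by Cfp, had 423, 332 and 425 reads, a log2 ratio of 0.25 (95% interval 0.05 to 0.44). The list is small, since 14 of its 23 genes had a row and 8 of those had 50 reads or more. It includes Itgam, which is also counted among the integrins.

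Cytokine receptors leaned the same way. Of 31 inflammatory cytokines and receptors compared, 16 had a ratio below 0.5 (51.6%, beside 7.32% of all genes) and 2 above 2, with a median log2 ratio of -1.01. Csf3r, the receptor for G-CSF, had 370 BMM-AB, 48 pOC-AB and 33 mOC-AB reads and a log2 ratio of -3.25 (95% interval -3.81 to -2.73), with most of the difference already present in pOC-ABs. Il17ra had 827, 222 and 136 reads and -2.36 (95% interval -2.64 to -2.10), and the TNF receptor gene Tnfrsf1b had 703, 181 and 138 reads and -2.11 (95% interval -2.38 to -1.84). Nos2, the inducible nitric oxide synthase, and Tnfrsf9, the receptor 4-1BB, had ratios above 2, at log2 values of 1.33 (95% interval 1.03 to 1.64) and 1.503 (95% interval 0.60 to 2.48), although that of Tnfrsf9 was 0.71, short of 2-fold, from summed FPKM. Of 8 chemokine genes and receptors, 4 had a ratio below 0.5 (50.0%) and 1 above 2 (12.5%, beside 2.48% of all genes). Cxcl2, a neutrophil attractant, had 673 BMM-AB, 242 pOC-AB and 107 mOC-AB reads and a log2 ratio of -2.41 (95% interval -2.72 to -2.12), and Cx3cr1, the fractalkine receptor of the monocyte lineage, had 429, 81 and 86 reads and -2.08 (95% interval -2.43 to -1.74). Ccr1, the receptor for Ccl9 and Ccl3, was the one above 2-fold, with 28, 38 and 161 reads, a log2 ratio of 2.76 (95% interval 2.18 to 3.40).

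**Figure D4:**
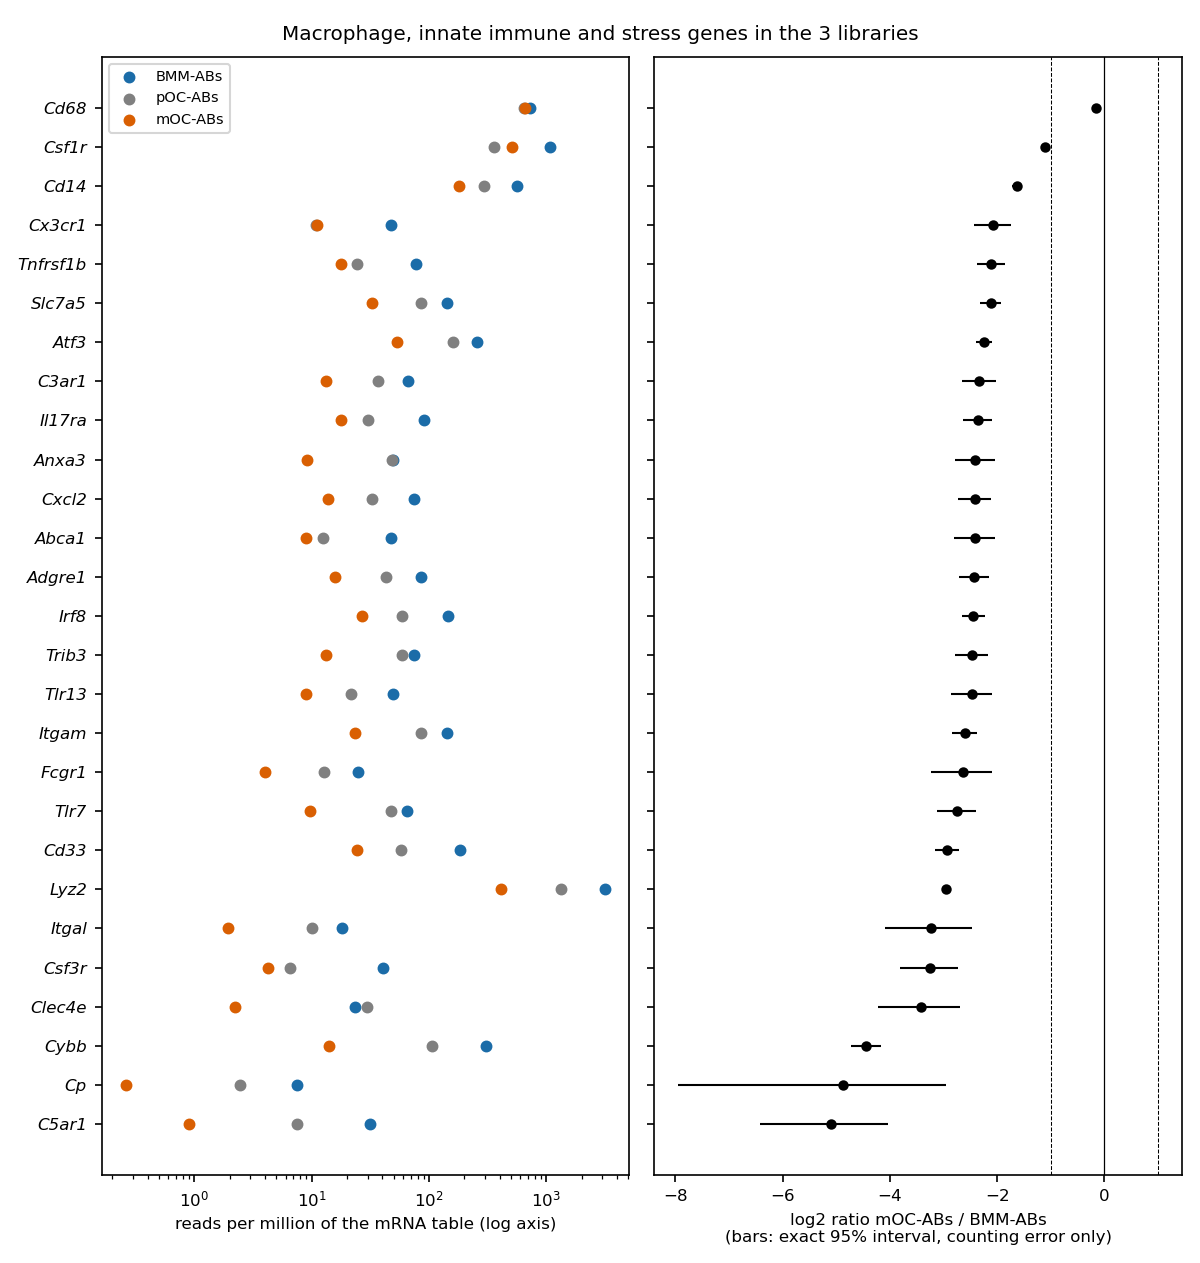
RPM (reads scaled to the mRNA table, horizontal log axis) of macrophage genes in the 3 libraries, 1 per AB type, and, on the right, the log2 ratio of mOC-ABs to BMM-ABs with its exact 95% counting interval (bars) and the 2-fold limits (dashed). Cybb has 304 RPM in the BMM-AB library, 106 in that of pOC-ABs and 14.0 in that of mOC-ABs.

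Interferon and MHC class I genes were mostly on the lower side of 1. Of 38 interferon-stimulated genes, 8 had a ratio below 0.5 (21.1%, beside 7.32% of all genes) and 1 above 2 (2.63%, beside 2.48%). A ratio below 1 was found for 31 (beside 5825 of all 10128 genes), and the median log2 ratio was -0.35. Ifitm3, an antiviral membrane protein, had 2442 BMM-AB, 1951 pOC-AB and 1010 mOC-AB reads and a log2 ratio of -1.03 (95% interval -1.14 to -0.93). Irf7, a transcription factor of the interferon response, lay on the other side with 328, 505 and 591 reads and 1.09 (95% interval 0.89 to 1.29). Of 22 MHC class I genes, 4 had a ratio below 0.5 (18.2%, beside 7.32% of all genes) and 20 a ratio below 1. H2-D1, a classical class I heavy chain, had 2805, 1378 and 1274 reads, a log2 ratio of -0.90 (95% interval -0.995 to -0.80), and the peptide transporter Tap2 had 191, 60 and 74 reads and -1.13 (95% interval -1.54 to -0.73). Class I heavy chains are alike in sequence, so reads may be split among them. Only 3 of 15 class II genes were compared, among them Cd74, the invariant chain, with a log2 ratio of -0.25 (95% interval -0.34 to -0.16), and the co-stimulatory ligand Cd80 with 82, 103 and 171 reads and 1.30 (95% interval 0.91 to 1.70).

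Lysosomal genes as a group were not higher in mOC-ABs. Of 47 hydrolases and lysosomal membrane proteins, 6 had a ratio below 0.5 (12.8%, beside 7.32% of all genes) and 0 above 2. A ratio below 1 was found for 40 (beside 5825 of all 10128 genes), and the median log2 ratio was -0.46. Lgmn, the asparagine-cutting protease legumain, had 4349 BMM-AB, 1570 pOC-AB and 1491 mOC-AB reads and a log2 ratio of -1.30 (95% interval -1.39 to -1.22). Lipa, the lysosomal acid lipase, had 1690, 1020 and 1539 reads and 0.11 (95% interval 0.004374 to 0.21). Among 11 cathepsins, Ctsk had a ratio above 2, 6 others had a ratio below 0.5 and 10 lay below 1. Ctsb, a cysteine cathepsin of broad expression, had 14727 BMM-AB, 5252 pOC-AB and 6091 mOC-AB reads, a log2 ratio of -1.03 (95% interval -1.08 to -0.99), and was among the 5 genes with the largest loss in RPM. Ctss, which trims the invariant chain, had 4761, 2279 and 1674 reads and -1.27 (95% interval -1.35 to -1.19), and Ctsc, which activates granule proteases, had 332, 186 and 73 reads and -1.95 (95% interval -2.33 to -1.58). Of 9 metalloproteinases, ADAMs and inhibitors compared, 1, Mmp9, had a ratio above 2 and 3 below 0.5, among them Adamts1 with 166, 90 and 24 reads and -2.55 (95% interval -3.23 to -1.93). The others were Adam15 at -1.29 (95% interval -1.42 to -1.16) and Adam9 at -1.03 (95% interval -1.21 to -0.86). Neither kept that call in every setting, as given further on.

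Receptors and bridging proteins for the uptake of dying cells had 16 compared members, with a median log2 ratio of -0.81. Of these, 6 had a ratio below 0.5 (37.5%, beside 7.32% of all genes) and 0 above 2. Pros1, a bridging ligand of the TAM receptors, had 59 BMM-AB, 27 pOC-AB and 4 mOC-AB reads and a log2 ratio of -3.64 (95% interval -5.57 to -2.21). P2ry6, a nucleotide receptor that triggers engulfment, had 847, 317 and 160 reads and -2.16 (95% interval -2.42 to -1.92), and the cholesterol exporter Abca1 had 435, 92 and 69 reads and -2.42 (95% interval -2.80 to -2.05). Mfge8, which bridges phosphatidylserine to αv integrins, lay higher with 421, 243 and 524 reads and 0.56 (95% interval 0.37 to 0.74).

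Stress response and sterol genes mostly had ratios below 1. Of 30 genes of the integrated stress response, in which phosphorylated eIF2α favours translation of ATF4, 12 had a ratio below 0.5 and 29 below 1, with a median log2 ratio of -0.92. Trib3, a pseudokinase target of that pathway, had 673 BMM-AB, 433 pOC-AB and 103 mOC-AB reads and a log2 ratio of -2.47 (95% interval -2.78 to -2.17). Atf3, a stress-induced transcription factor, had 2312 BMM-AB, 1194 pOC-AB and 415 mOC-AB reads and -2.24 (95% interval -2.39 to -2.09). Slc7a5, a large amino acid transporter, had 1298, 635 and 253 reads and -2.12 (95% interval -2.32 to -1.92). The one member above 1 was Eif2s1, which encodes eIF2α itself, with a log2 ratio of 0.61 (95% interval 0.47 to 0.75). Summed over the list, the level was 5389 (BMM-ABs), 5549.6 (pOC-ABs) and 3109 RPM (mOC-ABs), so that pOC-ABs lay next to BMM-ABs. Of 27 genes of cholesterol and mevalonate synthesis, 4 had a ratio below 0.5 (14.8%, beside 7.32% of all genes) and 24 below 1 (beside 5825 of all 10128 genes), with a median log2 ratio of -0.45. Fdps, the farnesyl diphosphate synthase that alendronate inhibits, had 1986 BMM-AB, 2221 pOC-AB and 1510 mOC-AB reads and a log2 ratio of -0.16 (95% interval -0.25 to -0.06).

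Iron genes had members at both ends. Of 19 iron genes, 2 had a ratio above 2 and 4 below 0.5. Tfrc, the transferrin receptor that brings iron into cells, had 774 BMM-AB, 917 pOC-AB and 1863 mOC-AB reads and a log2 ratio of 1.51 (95% interval 1.39 to 1.63), but of 0.88, short of 2-fold, from summed FPKM. Bdh2, an enzyme of siderophore synthesis, had 16, 44 and 161 reads and 3.57 (95% interval 2.83 to 4.41). Cp, the ferroxidase ceruloplasmin, had 69, 18 and 2 reads and -4.87 (95% interval -7.94 to -2.96), and Slc11a1, the phagosomal metal transporter Nramp1, had 746, 377 and 261 reads and -1.28 (95% interval -1.48 to -1.07). Of 11 S100 proteins and galectins, 1 had a ratio above 2 and 2 below 0.5. The higher one was S100a10, a partner of annexin A2, with 1751, 2721 and 3628 reads and a log2 ratio of 1.29 (95% interval 1.21 to 1.37). The lower ones were the galectin Lgals9, at -1.56 (95% interval -1.99 to -1.15), and Lgals3bp, which binds a galectin, at -1.60 (95% interval -1.78 to -1.42), which was -0.62 from summed FPKM.

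Genes of mitochondria and of protein synthesis were mostly higher by less than 2-fold. Of 74 nuclear subunits of oxidative phosphorylation, 70 had a ratio above 1 (beside 4303 of all 10128 genes) and 1 above 2. Their median log2 ratio was 0.38. Uqcrb, a subunit of complex III, had 351 BMM-AB, 702 pOC-AB and 565 mOC-AB reads and a log2 ratio of 0.93 (95% interval 0.73 to 1.12), so that its highest level was in pOC-ABs. Of 30 genes on the list of TCA cycle enzymes, 27 had a ratio above 1, with a median of 0.27. The list also holds cytosolic counterparts of cycle enzymes, and the highest ratio on it was that of one of them, the malate dehydrogenase gene Mdh1, with 1772, 2225 and 2555 reads and 0.77 (95% interval 0.68 to 0.86). The 13 proteins that mitochondrial DNA encodes did not share this, with 11 below 1, 0 below 0.5 and a median log2 ratio of -0.19. The most read of them, mt-Co1, which encodes a core subunit of complex IV, had 120765 BMM-AB, 79436 pOC-AB and 77386 mOC-AB reads, a log2 ratio of -0.40 (95% interval -0.42 to -0.39). Its level was 13271 RPM in BMM-ABs and 10043 in mOC-ABs.

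Of 80 cytosolic ribosomal protein genes, 70 had a ratio above 1 (beside 4303 of all 10128 genes), 1 above 2 and 1 below 0.5. Their median log2 ratio was 0.31, and together they held 30939, 36363 and 37781 RPM in the order of RANKL time. Rpl15 had 538, 1689 and 1773 reads, a log2 ratio of 1.96 (95% interval 1.82 to 2.10), and was the one above 2-fold, while Rpl21, with 49, 48 and 18 reads and -1.21 (95% interval -2.07 to -0.40), was the one below 0.5. Ribosomal protein genes have many near-identical pseudogene copies, to which their reads can be lost. Mitochondrial ribosomal proteins (60 of 78 above 1, median 0.23), the proteasome (29 of 35, median 0.22) and splicing factors (26 of 37, median 0.18) lay on the same side, with 2, 0 and 0 genes above 2-fold.

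Several of these lists hold short transcripts, and the ratio moved with transcript length. Split by length into 5 bins, the genes had median log2 ratios of 0.08, -0.08, -0.10, -0.12 and -0.15 from the shortest to the longest, and Spearman's rho over the 10120 genes with a length was -0.16, which is across genes of the same 2 libraries and not across samples. Genes above 2-fold made up 2.86% of the shortest bin and 2.03% of the longest, and genes below 0.5 made up 4.74% and 7.91%. The median length was 789.5 bases for the ribosomal protein genes and 800.5 for the oxidative phosphorylation subunits. The part of length in their ratios was not tested.

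**Figure D5:**
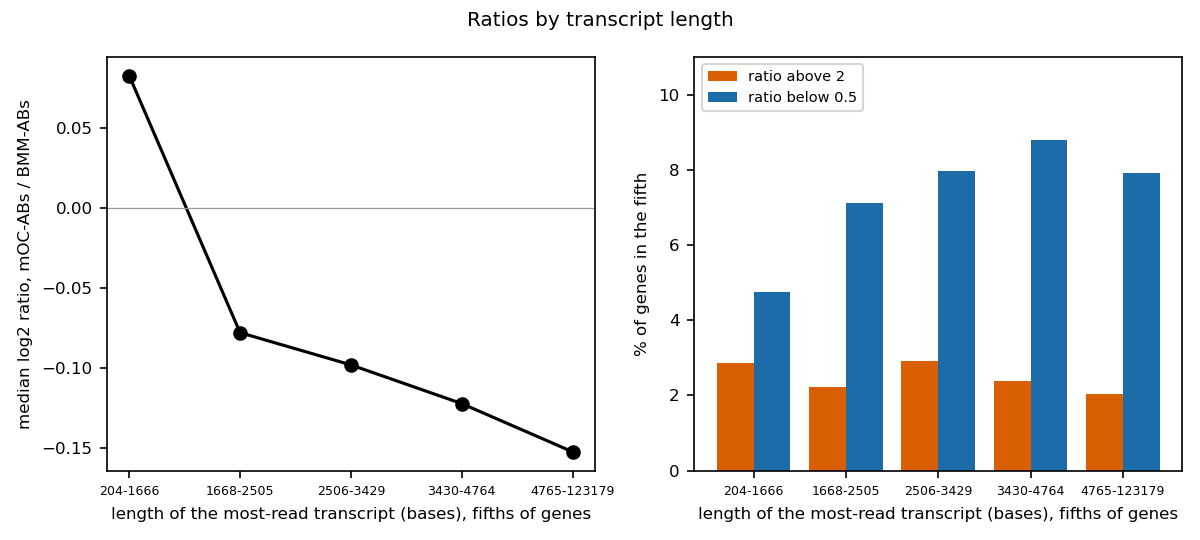
Median log2 ratio of mOC-ABs to BMM-ABs (left) and percentage of genes with a ratio above 2 or below 0.5 (right, bars) in 5 bins of the length of the most-read transcript (horizontal axes, bases). The medians go from 0.08 in the shortest bin to -0.15 in the longest.

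Other housekeeping lists had medians near that of all genes and few or no members past 2-fold. Cell cycle genes had a median log2 ratio of -0.10 (50 compared, 0 above 2 and 1 below 0.5), DNA replication genes -0.04 (45, 0 and 0) and autophagy genes -0.08 (34, 0 and 1). The proliferation marker Mki67 had 7513 BMM-AB, 4394 pOC-AB and 3842 mOC-AB reads and a log2 ratio of -0.73 (95% interval -0.78 to -0.67), and the replication clamp Pcna had 2198, 3090 and 2944 reads and 0.66 (95% interval 0.58 to 0.74). Heat shock proteins and chaperones had a median of 0.07 with 1 of 40 above 2. Replication-dependent histones had a median of -0.18, and 38 of 45 had a ratio below 1 (beside 5825 of all 10128 genes). Hist4h4 stood apart from the other histones, with 470 BMM-AB, 3068 pOC-AB and 2832 mOC-AB reads and a log2 ratio of 2.83 (95% interval 2.69 to 2.98). Histone genes of 1 class are near-identical, and the methods describe libraries selected on poly-A tails, which most histone mRNAs lack.

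No gene of the caspase list passed 2-fold. Of 31 caspase and apoptotic body genes, 0 had a ratio above 2 and 0 below 0.5, with a median log2 ratio of -0.02. Among 19 BCL2 family genes, Bid, which links death receptors to mitochondria, had 379 BMM-AB, 751 pOC-AB and 736 mOC-AB reads and a log2 ratio of 1.20 (95% interval 1.02 to 1.38), while Bbc3 (PUMA) had 653, 483 and 258 reads and -1.10 (95% interval -1.31 to -0.89), both short of 2-fold from protein-coding transcripts alone (0.74 and -0.30), and the survival gene Bcl2l2 had 418, 61 and 99 reads and -1.84 (95% interval -2.17 to -1.52). Of 23 p53 targets, 1 had a ratio above 2 (4.35%, beside 2.48% of all genes) and 5 below 0.5 (21.7%, beside 7.32%). Among 27 glycolytic genes the median was -0.07, with Eno3, the muscle enolase, at 293, 324 and 1237 reads and 2.32 (95% interval 2.13 to 2.51) and the transporter Slc2a6 at 892, 250 and 106 reads and -2.83 (95% interval -3.14 to -2.54) as the ones past 2-fold. Annexins (2 of 9 below 0.5) and genes of lipid handling (1 of 23) had no member above 2.

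Several of the strongest differences lay outside these lists. The genes were ranked by the bound of their interval nearest to no change, and the 15 at either end were taken. Slc6a4, the serotonin transporter, had 1 BMM-AB, 5 pOC-AB and 295 mOC-AB reads, and a log2 ratio of 8.45 (95% interval 5.96 to 13.75). The small GTPase gene Rab15 had 6, 76 and 240 reads and 5.56 (95% interval 4.42 to 7.02), Rasd2, which encodes another Ras-family GTPase, had 3, 8 and 118 reads and 5.54 (95% interval 3.96 to 7.84), and Gstt1, a glutathione transferase, had 1, 50 and 58 reads and 6.10 (95% interval 3.56 to 11.43). These genes were close to absent from BMM-ABs, so their ratios are known only within wide intervals. On the lower side, S1pr1, a sphingosine-1-phosphate receptor that guides osteoclast precursors, had 315 BMM-AB, 81 pOC-AB and 16 mOC-AB reads and a log2 ratio of -4.06 (95% interval -4.88 to -3.34). Ms4a6c, a membrane protein of macrophages, had 333, 86 and 17 reads and -4.05 (95% interval -4.85 to -3.35).

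In this ranking, 5 of the 15 higher genes had 0 reads in BMM-ABs and 7 of the 15 lower genes had 0 in mOC-ABs. Against a floor of 3 reads in the library at 0, and with the reads of the other library taken as exact, Sdhaf1 was at least 57.9-fold higher in mOC-ABs, Gm20716 at least 44.5-fold, Mars2 at least 31.5-fold, Selp at least 28.7-fold and Pi4ka at least 26.4-fold. Inafm2 was at least 85.2-fold lower in mOC-ABs, Kbtbd7 at least 40.4-fold, Gm49361 at least 31.0-fold, Jrkl at least 28.5-fold, Leng9 at least 20.9-fold and Cpt1b at least 19.2-fold. For Nnt, 1 of its 2 gene identifiers was at least 111-fold lower. Of these 12 genes, 11 had a single transcript in the table (91.7%, against 14.9% of all compared genes) and 7 overlapped another coding gene (58.3% against 22.6%). Reads of a gene that overlaps another can be counted for either, and the part of such overlap in these values was not tested. Nnt is nicotinamide nucleotide transhydrogenase, a mitochondrial enzyme. Identifier ENSMUSG00000116207 had 394 reads in BMM-ABs and 0 in both other libraries, and the other identifier had 117, 260 and 455. Summed, Nnt had 511, 260 and 455 reads, which is a log2 ratio of 0.07 (95% interval -0.11 to 0.26).

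By RPM, the largest gains in mOC-ABs included abundant genes with small ratios. Eef1a1, a translation elongation factor, was at 10211, 12309.7 and 14573 RPM with RANKL time, and Pabpc1, the poly-A binding protein, at 2491, 3185 and 3498 RPM. Actb, the cytoplasmic β-actin, was at 1510.4, 2142 and 2462 RPM. Fosl2 and Ank joined them with larger ratios. Ank, a membrane protein that exports pyrophosphate and controls mineral deposition, had 2529 BMM-AB, 2606 pOC-AB and 8611 mOC-AB reads and a log2 ratio of 2.01 (95% interval 1.94 to 2.07), with levels of 278, 353 and 1118 RPM. The largest losses, besides mt-Co1, Lyz2 and Ctsb, were those of Ahnak, a giant scaffold protein, at 7528, 3440.5 and 3731 RPM, and of Lrp1, a large endocytic receptor, at 2955, 1403 and 1995 RPM. For both, the lowest of the 3 levels was in pOC-ABs.

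The 2-fold call of some genes rested on the scaling or on how reads were summed. The ratios of Ctsb, Fcer1g, Ifitm3, Adam9 and Ahnak, all next to 0.5, came above it with TMM, upper-quartile, median-of-ratios or protein-coding scaling, and that of Tfeb with the first 3 of these. Scaled to both tables, the ratios of Atp6v1a, Tns3 and Irf7 came under 2, and those of Atp6v1a and Tns3 did so from summed FPKM too. That of Ahnak also came above 0.5 from summed FPKM. From protein-coding transcripts alone the log2 ratio of Adam15 was -0.59, that of Tap2 was -0.90, and that of Trem2 was -0.9995. Other values kept their side of the 2-fold limits but moved by over 1.5 times. From summed FPKM the log2 ratio was 3.62 for Rhou, 3.26 for Mmp9, 8.04 for Slc9b2, 6.69 for Prdm1, 4.76 for Rab15, -1.06 for Bcl2l2, -2.16 for Tlr7 and -5.92 for Cp. From protein-coding transcripts alone it was 5.91 for Rhou, 6.11 for Slc9b2, -2.25 for Clec4e and -4.81 for Ms4a6c. With 1 read added to each library it was 7.45 for Slc6a4, 5.12 for Gstt1 and 5.07 for Prdm1.

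At the minimum of 50 reads, 9 genes lay exactly on it and 19 just under it at 49. Zbtb46, with 21 reads in BMM-ABs and 29 in mOC-ABs, was just inside. Siglec15, a receptor of osteoclast fusion with 11 and 38 reads, was just outside with Oscar. Both Zbtb46 and Siglec15 were chosen as examples here after their values were seen, though Zbtb46 is also on the list of dendritic cell markers.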

How the data were processed

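Total RNA of ABs of 3 cell stages was extracted and sequenced in 1 library each, after a selection on poly-A tails that the methods describe. For each transcript the authors deposited a read count and FPKM, made with HISAT2 and StringTie on GRCm38 as listed in the submitters' processing notes. Of 56651 transcripts in the mRNA table, 211 were absent from GENCODE M21 and left out, and 52804 belonged to protein-coding genes. Counts were summed by gene and divided by the sum of each mRNA column, where 3 reads are 0.330 RPM in BMM-ABs and 0.389 in mOC-ABs. FPKM was summed by gene. Log2 ratios have exact Clopper-Pearson 95% intervals (scipy 1.17.1). Their code was run on counts simulated under the same binomial model, which cannot show how well that model describes these libraries. Calls are ratios above 2 or below 0.5. Alternative scalings used edgeR 4.0.16. With 1 library a side no test was run. The lncRNA table entered only as a total, and the circRNA table was not used.

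Named genes are the 15 at either end by the interval bound nearest to no change, up to 4 at either end of each list, the cell type markers, and the 5 with the largest gain or loss in RPM. The comparison, its members and the gene lists were chosen with earlier results of these data known. Some genes that this rule names are not reported here.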

Additional observations from a re-analysis of the deposited data

How the results depend on the processing

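No paired analysis was possible because each condition has 1 library. With 1 library a side, differences between cultures and differences between conditions cannot be told apart, and the 354 genes past 2-fold with under 200 reads have the widest intervals. The 251 genes above 2-fold became 157 with a minimum of 200 reads, 729 with no minimum, 419 with protein-coding transcripts only, 159 when the whole interval had to pass and 724 at 1.5-fold. The 741 genes below 0.5 became 481, 1610, 383 and 1829 with a minimum of 200 reads, no minimum, the whole interval and 1.5-fold. Scaling moved every log2 ratio by -0.10 (both tables) to 0.09 (median of ratios), and the share of calls above 2-fold, 25.3% as reported, ranged from 18.7% with both tables to 34.8% with protein-coding transcripts only. Relative to the median of all genes, the median of the osteoclast effector genes was 1.58 as reported, 1.09 with a minimum of 200 reads, 1.31 with no minimum and 1.92 with overlapping genes left out, an alternative chosen after seeing the data. For metalloproteinases and ADAMs it was -0.76 as reported, -0.45 with a minimum of 20 reads, -0.43 with no minimum and -0.0173 with protein-coding transcripts only. For MHC class II it was -0.17 as reported, -0.45 with a minimum of 20 reads, 0.59 with 200, 0.20 with no minimum and 0.61 with overlapping genes left out. For chemokines it was -1.08 as reported, -0.19 with no minimum and -0.73 with overlapping genes left out, and for the Toll-like receptor pathway -0.68 as reported and -1.02 with a minimum of 200 reads. With protein-coding transcripts only it was 0.13 for annexins and 0.16 for p53 targets, with summed FPKM -0.12 for glycolytic enzymes, and with overlapping genes left out 0.025 for the mitochondrially encoded proteins. In the other runs each list median stayed between the medians of its members' lower and upper interval limits. The limits, like the list medians, were taken relative to the median of all genes. This range reflects the interval of a typical member and is not the counting error of a list median, which was not computed. The cause of these shifts was not tested, beyond the fewer or more genes that a minimum leaves. No named gene past 2-fold changed direction in the alternatives that held it (294 to 361 of 361 named gene identifiers), with identifiers of 1 symbol kept apart. Summed over both identifiers, Nnt had a log2 ratio of 0.07.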

Other observations

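Further genes at the ends of the ranking were unnamed loci or overlapped others. Gm42715, which overlaps 2 coding genes, had 1102 BMM-AB, 3 pOC-AB and 17 mOC-AB reads, and its log2 ratio was -5.78 (95% interval -6.56 to -5.09) from reads and -2.32 from summed FPKM. AL732309.1, which also overlaps 2 coding genes, had 208, 88 and 13 reads in the same order and a log2 ratio of -3.76 (95% interval -4.69 to -2.95). On the higher side, Gm21969, again overlapping 2 coding genes, had 1 BMM-AB, 0 pOC-AB and 82 mOC-AB reads and a log2 ratio of 6.60 (95% interval 4.08 to 11.92), and Ovca2, a serine hydrolase, had 2, 12 and 98 reads and 5.86 (95% interval 3.96 to 8.92).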
